A study of Mus musculus with 4 samples.

Results

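Coronary endothelial cells of the mouse heart were compared between embryonic day 15 (E15) and postnatal day 2 (P2), that is, across birth. The cells were selected on their own transcripts, counted as unique molecular identifiers (UMIs, 1 per captured molecule). A barcode was taken as coronary when its UMIs of Fabp4, Cldn5, Aplnr and Gpihbp1 summed to at least 2, when this sum exceeded that of the endocardial genes Npr3, Tmem108, Cpe and Gsta4, and when it held at least 1 UMI of Pecam1, Cdh5 or Egfl7. This rule chose 1089 of 6062 barcodes at E15 (18%, exact 95% binomial interval 17% to 19%) and 4237 of 5884 at P2 (72.0%, 70.8% to 73.2%), in all 5326 of the 11946 barcodes of both stages and of 21920 in the 4 stages of the series. With every P2 barcode first thinned to 1013 UMIs, the median depth of all E15 barcodes, the rule chose 66.5% of them. The shares describe what the rule selected and were not compared further.

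Both groups came from hearts of C57Bl6J mice and held cells sorted as CD31+/CD45-, the endothelial fraction. Each stage was 1 library made from pooled animals, 48 embryos at E15 and 21 pups at P2, so the difference between stages has no replicate check and no p-value is given. The stage could not be told apart from the preparation: E15 hearts were digested with Collagenase/Dispase alone and P2 hearts with collagenase II first, dead E15 cells were removed with a kit and P2 cells were sorted again for live cells, and embryonic cells were gathered in several rounds of sorting and freezing. Libraries from E12 (37 embryos) and from adult hearts of 8 weeks (6 animals) gave levels at the stages on either side. Adult hearts went through both enzyme steps and the live-cell sort used at P2. E12 hearts had the enzymes and the dead-cell kit used at E15. A difference between embryonic and postnatal libraries could thus not be told apart from the preparation either.

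The coronary vessels supply the heart muscle, and their capillary endothelium passes oxygen and lipid from the blood to the cardiomyocytes. In the embryo the vessels form as a plexus that grows through the ventricular wall, with sprouting tip cells at its front and arteries and veins emerging within it. At birth the lungs take over oxygenation, milk becomes the source of energy and the heart turns from glucose and lactate towards fatty acids, which the capillary endothelium has to take up and hand on.

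The label was checked against markers that the rule did not use, in coronary cells against endocardial cells of the same library, the latter chosen by the mirrored rule (1327 at E15 and 1555 at P2). At E15, 10 of 12 coronary markers lay above the endocardial level with intervals beyond 1, and at P2 11 of 12 did. Car4 was as low in coronary as in endocardial cells at E15 (2.67 and 2.38 CPM), and Flt1, a VEGF receptor, was at like levels in both cell groups at both stages. All 10 endocardial markers were lower in coronary cells at both stages, from 0.0607 to 0.66 times the endocardial level at E15. The E15 members sat close to the rule, with a median of 7 UMIs of the 4 coronary genes against 85 at P2 and 20 in thinned P2 barcodes. Exactly 2 such UMIs were held by 117 E15 members (10.7%) and 11 P2 members (0.26%), while 181 E15 barcodes and 6 P2 barcodes fell just outside with 1. Of barcodes with 2 or more, 37 at E15 and 1044 at P2 were left out because the endocardial sum was not lower. A further 187 at E15 and 8 at P2 lacked an endothelial UMI.

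Depth differed between the libraries, with a median of 1217 UMIs per coronary cell at E15 and 4529 at P2 and totals of 1498885 and 21757505 UMIs, so E15 counts set the precision. The 2 libraries shared 60 barcodes. The E12 coronary group was small, with 112 cells and 243599 UMIs, so 1 UMI was 4.11 CPM. A floor of 3 UMIs, set beforehand and not an interval bound, was 12.3 CPM there, and a count of 0 says only that the level was low. Of the E12 coronary cells 66 (58.9%) held exactly 2 UMIs of the 4 coronary genes, so E12 levels are rough. Ribosomal protein genes held 29.3% of the UMIs at E15 and 15.9% at P2, with 28.0% and 15.8% in endocardial cells, and mitochondrially encoded genes held 2.28% and 3.52%. Summed markers of other cell types in the coronary cells were 520 and 1132 CPM for the 7 lymphatic genes (mostly Ccl21a), 336 and 183 for 8 fibroblast genes, 122 and 60.7 for 8 mural genes, 93.4 and 134 for 12 cardiomyocyte genes, 68.7 and 124 for 6 epicardial genes (mostly Wt1) and 12.7 and 9.01 for 9 leukocyte genes at E15 and P2. Wt1 alone was at 66.7 and 116 CPM, and at 4.75 and 22.9 in endocardial cells. The highest of the other epicardial genes was Krt19, at 7.68 CPM at P2, so that sum is not a measure of epicardial cells. Hemoglobins stood at 1597 CPM at E15, but 1 cell held 2035 of their 2394 UMIs, and without it they were at 240.2 CPM, against 32.3 CPM at P2 and 17.3 without the P2 cell that held the most. Xist was at 2029.5 and 626 CPM and the Y-linked genes at 34.0 and 80.5, and ratios in cells with Xist alone are given at the end.

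UMIs were summed over the coronary cells of each stage and given per 1000000 summed UMIs (CPM). Among the 5446 genes with a mean of both levels of at least 20 CPM, the 11 genes of the rule left out, 733 (13.5%) were at least 2-fold higher at P2 and 181 (3.32%) at least 2-fold lower. A gene under 20 CPM at 1 stage passed this filter only through a higher level at the other stage, so the filter set its direction. The counts of gene lists given below are to be read beside these shares of all genes. The lists were chosen with earlier results of these data known, so their counts are a description and not independent support. The median gene was 1.26-fold higher at P2, and centring the ratios on the median of 1500 abundant genes, 1.19-fold higher at P2, gave 394 higher and 310 lower. Higher genes thus made up 80.2% of those past 2-fold on total UMIs and 56.0% after centring. With P2 barcodes thinned to 1013 UMIs each, a match to the E15 median only, 758 genes (13.9%) were higher and 191 (3.5%) lower, of which 647 and 166 were also past 2-fold at full depth. Intervals given with a ratio are exact conditional binomial 95% intervals, which cover counting error only and not the spread between animals.

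**Figure D1:**
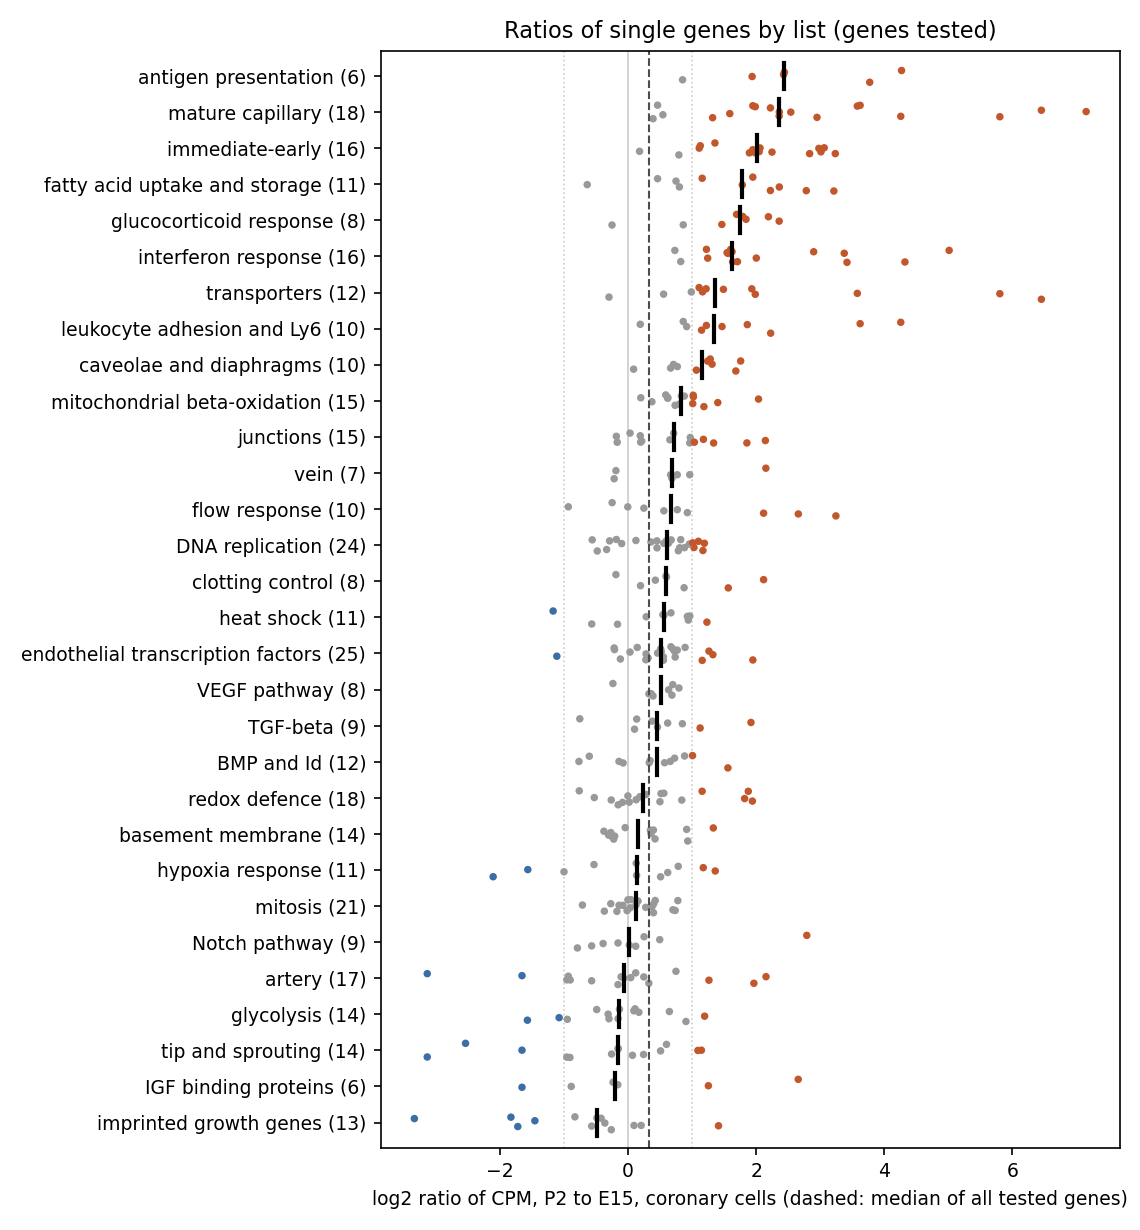
Each point is a gene of one of the pathway lists, placed at its log2 ratio of CPM, P2 to E15, in coronary cells, with the number of genes measured in parentheses. Black bars mark the list medians, the dashed line the median of all 5446 genes (1.26-fold), dotted lines 2-fold, and orange and blue points lie beyond 2-fold. The antigen presentation, mature capillary, immediate-early and fatty acid lists lie farthest to the right, and of the lists plotted, which leave out ribosomal proteins, mitochondrial genes and hemoglobins, the imprinted growth genes lie farthest to the left.

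Genes of mature capillaries were higher at P2. Of 18 such genes 15 were at least 2-fold higher at P2 and none lower, with a median ratio of 5.14 against 1.26 for all genes, and 15 and 0 were counted after centring. As this list was chosen with earlier results of these data known, its distance from all genes is not independent support. In endocardial cells 16 of the 18 were also at least 2-fold higher at P2, with a median ratio of 2.85, and the 18 summed to 461 and 1069 CPM there against 2309 and 7837 in coronary cells. Car4, the membrane-bound carbonic anhydrase of capillaries that hydrates carbon dioxide, stood at 0 CPM in E12, 2.67 in E15, 234 in P2 and 339 in adult cells. It was 87.5-fold higher at P2 (95% interval of the ratio 34.2 to 321), and its few E15 UMIs numbered 4. Endocardial cells of the same libraries held 2.38 and 6.27 CPM of Car4. Car4 was thus high in the P2 and adult coronary cells and low in embryonic coronary cells and in endocardial cells of either stage.

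Aqp7, an aquaporin that also passes glycerol, was at 0 CPM in E12, 3.34 in E15, 186 in P2 and 772 in adult cells and was 55.9-fold higher at P2 (95% interval of the ratio 23.9 to 172). Timp4, an inhibitor of matrix metalloproteinases, had 1 UMI at E15 and 94.8 CPM at P2, a ratio of 142 whose counting interval ran from 25.5 to 5616 (63.3 without cell-cycle cells). Both were barely counted in E15 coronary cells and were readily counted at P2. Ly6c1, a surface protein of the Ly6 family found on mature microvessels, was at 4.11 CPM in E12, 52.04 in E15, 641 in P2 and 3805 in adult cells, 12.3-fold higher at P2 (95% interval of the ratio 9.87 to 15.6). Ly6a (Sca-1), of the same family, was at 8.21 CPM in E12, 23.4 in E15, 447 in P2 and 3129.7 in adult cells, 19.1-fold higher at P2 (95% interval of the ratio 13.7 to 27.5). The levels of both genes ascended over the 4 libraries, though at E12 Ly6c1 rested on 1 UMI and Ly6a on 2. Reads of such related genes can be hard to assign. Cd300lg, a capillary mucin-like receptor that binds lymphocyte L-selectin, was at 34.03 CPM at E15 and 263 at P2, 7.73-fold higher at P2 (95% interval of the ratio 5.87 to 10.4). Among the others, Slc28a2 (11.95-fold, from 4 to 47.8 CPM), a nucleoside transporter, C1qtnf9 (5.82-fold, from 16.7 to 97.1 CPM), the secreted CTRP9, and Aqp1 (3.96-fold, from 138 to 547 CPM), the water channel, were also higher. The smallest ratios belonged to genes that were already abundant in the embryo, namely Kdr (1.31, 292 and 382 CPM), the main VEGF receptor, Tcf15 (1.38, 258 and 355 CPM), a transcription factor of heart capillaries, and Sparcl1 (1.46, 628 and 917 CPM), a matrix protein.

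**Figure D2:**
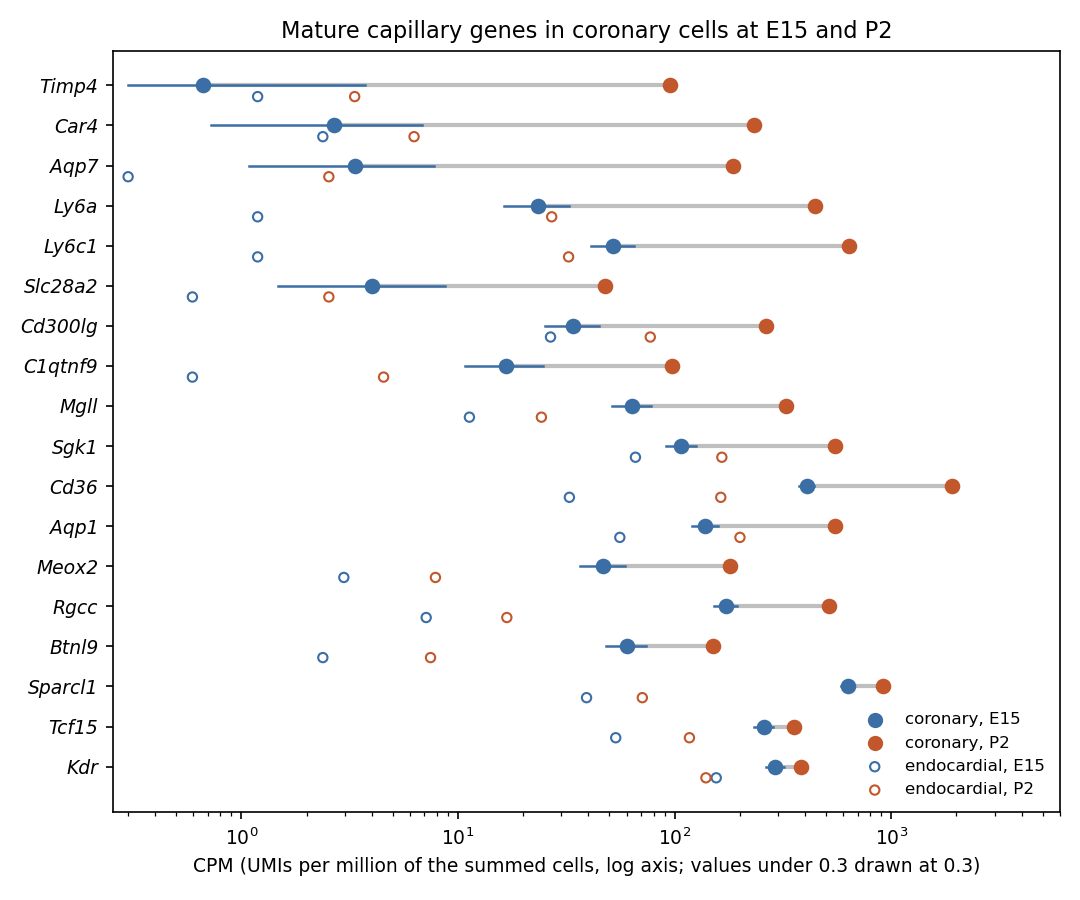
Levels of the 18 mature capillary genes on a log axis of CPM, with filled circles for coronary cells and open circles for endocardial cells, blue at E15 and orange at P2, and blue lines for the 95% Poisson interval of the E15 coronary level. Timp4, Car4 and Aqp7 sit below 4 CPM in E15 coronary cells and between 94.8 and 234 CPM at P2, and Kdr, Tcf15 and Sparcl1 lie within 2-fold.

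The same list was read cell by cell with every cell thinned to 500 UMIs, which left out 46 E15 cells that were shallower. Of the 18 genes the median E15 cell held 1 UMI, the median P2 cell 4 and the median adult cell 11. At least 1 such UMI was found in 67.2% of E15, 89.5% of P2 and 98.9% of adult coronary cells, against 17.8% and 37.4% of endocardial cells at E15 and P2. The P2 cells spread broadly, from 0 UMIs at the 10th percentile to 9 at the 90th, and the E15 cells from 0 to 3. For Car4 the share of coronary cells with a UMI was 0.0959% at E15 and 12.2% at P2, beside a background in endocardial cells of 0.0777% and 0.193%. Before thinning the coronary shares were 0.367% and 40.2%. For Cd36 the thinned shares were 18.4% and 54.6%.

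**Figure D3:**
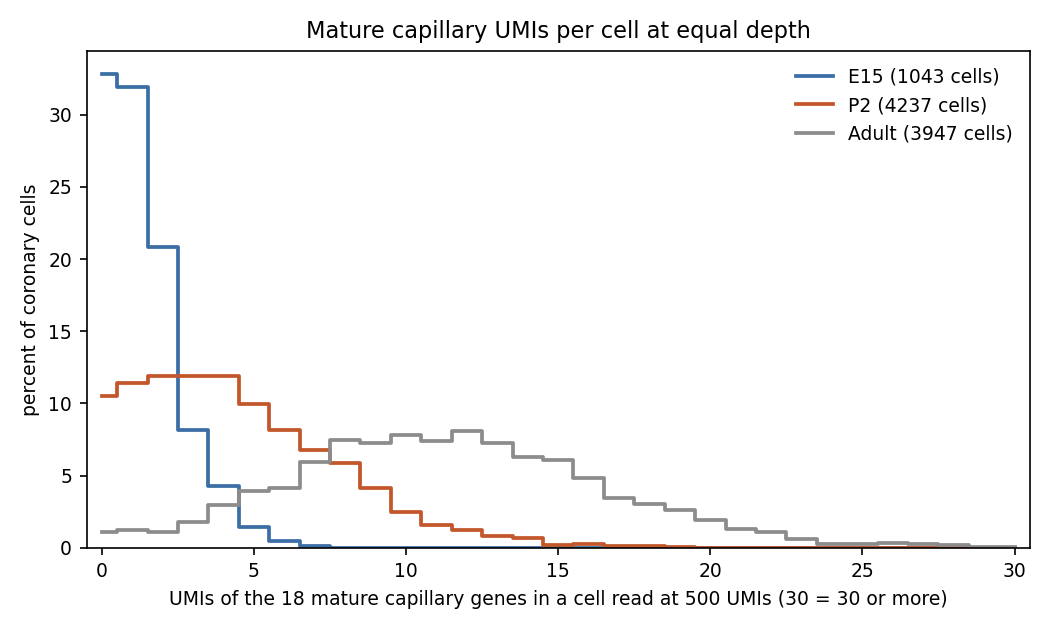
Percent of coronary cells (vertical axis) against the number of UMIs of the 18 mature capillary genes held by a cell read at 500 UMIs (horizontal axis), for the E15, P2 and adult libraries. The E15 curve peaks at 0 and 1, the P2 curve is flat from 0 to 4 and the adult curve is centred near 11, and the P2 curve overlaps both of the others.

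Genes for taking up and storing fatty acids were higher at P2. Of 11 measured, 7 were at least 2-fold higher and none lower, with a median ratio of 3.44 (6 after centring), beside 13.5% higher and 3.32% lower over all genes. In endocardial cells 6 of the 11 were at least 2-fold higher and none lower, with a median ratio of 2.15. Lpl, the lipase that releases fatty acids from blood lipoproteins, was at 16.4 CPM in E12, 30.02 in E15, 278 in P2 and 556 in adult cells, and was 9.27-fold higher at P2 (95% interval of the ratio 6.92 to 12.7). Angptl4, a secreted inhibitor of that lipase, was at 20.5 CPM in E12, 31.4 in E15, 216 in P2 and 45.9 in adult cells, 6.88-fold higher at P2 (95% interval of the ratio 5.17 to 9.38). Lpl remained high in the adult, whereas the adult level of Angptl4 lay closer to its E15 than to its P2 level. Cd36, the fatty acid translocase, was at 32.8 CPM in E12, 407 in E15, 1900.1 in P2 and 3492 in adult cells, 4.67-fold higher at P2 (95% interval of the ratio 4.31 to 5.07). Mgll, which splits monoglycerides, was at 63.4 CPM at E15 and 326 at P2 and 5.14-fold higher, and Plin2, which coats lipid droplets, was at 24.02 CPM at E15 and 82.7 at P2 and 3.44-fold higher. Among regulators, Meox2 (3.86-fold, from 46.7 to 180.3 CPM), a homeobox partner of Tcf15 in the fatty acid transport of heart endothelium, and Pparg (2.23-fold, from 15.3 to 34.2 CPM), a nuclear receptor of fatty acids, were higher. Fabp5, a fatty acid binding protein, was at 2807 CPM at E15 and 1806 at P2, a ratio of 0.643 (95% interval 0.623 to 0.664). In endocardial cells the ratio was 2.87 for Lpl and 5 for Cd36, the latter from far lower levels (32.7 and 163 CPM).

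The enzymes of mitochondrial beta-oxidation followed to a smaller degree, with 6 of 15 at least 2-fold higher, none lower and a median ratio of 1.78, but 2 after centring. The highest ratio was that of Acadvl, the very long chain acyl-CoA dehydrogenase, at 14.01 CPM at E15 and 57.5 at P2, 4.1-fold higher at P2 (95% interval of the ratio 2.67 to 6.65). Acaa2, the thiolase of the last step, was 2.64-fold higher, and Eci1, Etfa, Hadhb and Acadl lay between 2.01 and 2.27. Nuclear genes of oxidative phosphorylation lay near their E15 levels, with 3 of 74 higher, none lower and a median of 1.01 (0.851 after centring, with 1 higher and 5 lower). Of 14 glycolysis genes 1 was higher and 2 lower, with a median of 0.905, and 0 were higher and 3 lower after centring. Gapdh, of the central step, was at 1504 CPM at E15 and 714 at P2, 2.11-fold lower at P2 (95% interval of the ratio 0.454 to 0.496). Slc16a3, a lactate exporter of hypoxic cells, was at 30.02 CPM at E15 and 10.1 at P2, 2.97-fold lower at P2 (95% interval of the ratio 0.243 to 0.475), with a ratio of 0.69 in cells without a cell-cycle UMI, and Pfkp, a phosphofructokinase, was 2.29-fold higher. The glucose transporter Slc2a1 was at 26.02 CPM at E15 and 21.2 at P2, a ratio of 0.814 (95% interval 0.587 to 1.16). Among 11 genes of the hypoxia response 2 were higher, Ddit4 (2.57-fold, from 29.4 to 75.4 CPM) and Ndrg1 (2.26-fold, from 43.4 to 97.9 CPM), and 2 lower, Mif and Egln3, and the median ratio of 1.1 became 0.924 after centring. Each count was 18.2% of the list, beside 13.5% higher and 3.32% lower over all genes. Egln3, an oxygen sensor that is itself induced by hypoxia, was at 28.7 CPM in E12, 37.4 in E15, 8.69 in P2 and 2.31 in adult cells, 4.3-fold lower at P2 (95% interval of the ratio 0.172 to 0.319). Mif, a cytokine, was at 939 CPM at E15 and 318 at P2, 2.96-fold lower at P2 (95% interval of the ratio 0.319 to 0.359).

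Genes of the transporter, caveolar and junction lists were also among the higher genes. Of 12 genes of the transporter list 9 were at least 2-fold higher and none lower (median 2.56, 6 higher after centring), and in endocardial cells 5 were higher and none lower (median 1.9). Among them were Slc6a6 (3.82-fold, from 76.1 to 290.2 CPM), the taurine transporter, and Slc9a3r2 (2.81-fold, from 218 to 612 CPM), a scaffold of membrane exchangers. Slc25a5, the ADP/ATP carrier of mitochondria and not of the capillary wall, was 2.24-fold higher (from 458 to 1025 CPM), and 1.88-fold after centring. Of 10 caveolar genes 6 were higher and none lower (median 2.23, 4 higher after centring), and in endocardial cells 5 were higher and none lower (median 2.04). Cav2, a partner of caveolin 1, was at 94.4 CPM in E12, 272 in E15, 874 in P2 and 1095 in adult cells, 3.21-fold higher at P2 (95% interval of the ratio 2.91 to 3.55), and Sdpr, a cavin, was at 426 CPM at E15 and 1439.9 at P2, 3.38-fold higher. Cav1, the main caveolin, was at 1313 CPM at E15 and 2239 at P2, a ratio of 1.71, and Plvap, which forms the diaphragms of caveolae and fenestrae, was at 68.7 CPM at E15 and 109 at P2, a ratio of 1.59. Of 15 junction genes 5 were higher and none lower (median 1.64, 3 higher after centring), with Jam2, a tight junction adhesion molecule, at 35.4 CPM at E15 and 156 at P2 and 4.42-fold higher, Cdh13 (3.62-fold, from 37.4 to 135 CPM), a cadherin that binds adiponectin, and Ctnna1 (2.53-fold, from 106 to 268 CPM), alpha-catenin. Basement membrane genes were mostly within 2-fold, with 1 of 14 higher, Lamb2 (21.3 CPM at E15 and 53.7 at P2, 2.52-fold), none lower and a median of 1.11 (0.935 centred). Of 10 leukocyte adhesion and Ly6 genes 7 were higher (5 after centring), with Icam1 (4.68-fold, from 20.7 to 96.8 CPM), an integrin ligand, and Cd34 (2.34-fold, from 454 to 1059 CPM), a sialomucin, beside the Ly6 genes given above. Of 8 genes of clotting control 2 were higher, Thbd (4.34-fold, from 26.7 to 116 CPM), thrombomodulin, and Plat (2.96-fold, from 78.7 to 233 CPM), tissue plasminogen activator. In endocardial cells 4 of these 8 were higher, with a median of 2.21 against 1.51 in coronary cells. There 6 of the 10 leukocyte adhesion and Ly6 genes were higher as well (median 2.14), and 4 of the 15 junction genes, with 1 lower (median 1.75). These lists thus held higher genes in both cell groups, though the counts do not show whether they were the same genes. The endocardial cells held a median of 2 UMIs of the 4 coronary genes at P2 (0 in thinned barcodes) and 0 at E15. The part of coronary RNA in the endocardial ratios was not tested.

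Arterial genes lay on both sides, with 3 of 17 at least 2-fold higher, 2 lower and a median ratio of 0.956, and 3 higher and 5 lower after centring. The 17.6% higher and 11.8% lower stand beside 13.5% and 3.32% of all genes. Cxcl12, a chemokine of arterial endothelium, was at 12.3 CPM in E12, 75.4 in E15, 294 in P2 and 1678 in adult cells, and was 3.9-fold higher at P2 (95% interval of the ratio 3.24 to 4.74). Its receptor Cxcr4, found on tip cells and cells on the way to arteries, was at 16.4 CPM in E12, 54.04 in E15, 6.16 in P2 and 11.97 in adult cells, 8.77-fold lower at P2 (95% interval of the ratio 0.0859 to 0.152). The ligand was thus highest in the adult and the receptor highest at E15. Cells with a Cxcr4 UMI at 500 UMIs made up 2.59% at E15 and 0.354% at P2. Glul, glutamine synthetase, was at 46.7 CPM at E15 and 208 at P2, 4.45-fold higher at P2 (95% interval of the ratio 3.52 to 5.72) and 2.79-fold without arterial-marker cells, and Sox17, an arterial transcription factor, was at 88.7 CPM at E15 and 213 at P2, 2.4-fold higher at P2 (95% interval of the ratio 2.02 to 2.87). Cells holding a UMI of Gja4, Gja5, Hey1, Sox17 or Cxcl12 at 500 UMIs made up 15.1% of the 1043 coronary cells read at E15 and 20.6% at P2. These 5 include Sox17 and Cxcl12, which were past 2-fold higher. For the whole artery list the shares at 500 UMIs were 43.4% at E15 and 42.7% at P2. Within 2-fold were the gap junction genes of arteries, Gja4 (1.03, 113 and 116 CPM) and Gja5 (0.956, 32.02 and 30.6 CPM), and the Notch effector Hey1 (1.09, 62.7 and 68.2 CPM).

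Among 14 genes of tip cells and sprouting 2 were higher and 3 lower, with a median of 0.899, and after centring 0 were higher and 5 lower. Before centring these were 14.3% and 21.4% of the list, beside 13.5% and 3.32% of all genes. Kcne3, a potassium channel subunit of tip and capillary plexus cells, was at 226 CPM in E12, 102 in E15, 17.6 in P2 and 3.61 in adult cells, 5.8-fold lower at P2 (95% interval of the ratio 0.143 to 0.209). Igfbp3, which binds insulin-like growth factors, was at 139.6 CPM in E12, 458 in E15, 145 in P2 and 89.5 in adult cells, 3.15-fold lower at P2 (95% interval of the ratio 0.292 to 0.345). At 500 UMIs a cell, 16.01% of E15 and 4.91% of P2 coronary cells held an Igfbp3 UMI, and in endocardial cells its level was 59.4 and 62.3 CPM. A UMI of any gene of the tip and sprouting list was held by 51.8% of E15 and 57.1% of P2 coronary cells. The list summed to 1912 CPM at E15 and 1951 at P2. Esm1, a proteoglycan of tip cells, was at 12.01 CPM at E15 and 7.81 at P2, below the filter, with a ratio of 0.651 (95% interval 0.399 to 1.12). Just short of 2-fold lower were Unc5b, a netrin receptor, at 90.1 CPM at E15 and 46.5 at P2 (ratio 0.516) and Edn1, endothelin 1, at 50.04 CPM at E15 and 26.2 at P2 (ratio 0.524, and 1.24 in endocardial cells). The higher ones were Fscn1, the actin bundler fascin (2.13-fold, 342 CPM at E15 and 729 at P2), and Trp53i11 (2.21-fold). Apln, the ligand of Aplnr and a mark of sprouting capillaries, was at 75.4 CPM at E15 and 89.2 at P2, a ratio of 1.18. None of the 8 genes of the VEGF pathway passed 2-fold in either direction (median 1.43). In the vein list 1 of 7 was higher (14.3%, near the 13.5% of all genes), Prss23 (4.44-fold, from 21.3 to 94.9 CPM), a protease, with 11-fold in endocardial cells, and Nr2f2, the venous transcription factor, was at 83.4 CPM at E15 and 71.8 at P2 (ratio 0.861).

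Hes1, a transcriptional repressor that Notch and other signals induce, stood apart in the Notch list. It was at 111 CPM in E12, 135 in E15, 933 in P2 and 291 in adult cells, 6.92-fold higher at P2 (95% interval of the ratio 6.02 to 7.99), with a ratio of 2.9 in endocardial cells. Its P2 level exceeded the levels of the other 3 stages, and it was the only one of 9 Notch genes past 2-fold, with Notch4 (0.579, 62.05 and 35.9 CPM), Dll4 (0.897, 52.04 and 46.7 CPM) and Nrarp (1.41, 107 and 150.5 CPM) on either side of 1. The 11.1% higher in this list lay near the 13.5% of all genes. Of 10 genes of the flow response 3 were higher, none was lower and the median was 1.59. Klf2, the transcription factor that shear stress induces in endothelium, was at 131 CPM in E12, 224 in E15, 1415 in P2 and 569 in adult cells, 6.31-fold higher at P2 (95% interval of the ratio 5.67 to 7.05). Klf4, its relative, was at 24.6 CPM in E12, 32.7 in E15, 309.9 in P2 and 312 in adult cells, 9.48-fold higher at P2 (95% interval of the ratio 7.16 to 12.8). Nos3, the endothelial nitric oxide synthase that both factors act on, was at 82.1 CPM at E15 and 81.9 at P2, a ratio of 0.998 (95% interval 0.831 to 1.21). In the BMP list 2 of 12 were higher, with Id1, an inhibitor of helix-loop-helix factors, at 252 CPM at E15 and 743 at P2 (2.95-fold) and Tmem100 at 2.01-fold, and in the TGF-beta list 2 of 9, Ltbp4 (3.78-fold, from 62.05 to 235 CPM), which binds latent TGF-beta, and Tgfbi (2.18-fold, from 26.02 to 56.8 CPM), a matrix protein. The shares higher in these lists were 16.7% and 22.2%, beside 13.5% of all genes. Tgfbi had a ratio of 0.658 under a stricter rule, of at least 4 UMIs of the 4 coronary genes and no endocardial UMI.

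The immediate-early genes, which tissue digestion as well as signals in the animal induce quickly, were higher at P2 in 14 of 16 cases, with a median ratio of 4.04 (12 after centring). Junb was at 78 CPM in E12, 128 in E15, 1207 in P2 and 1466 in adult cells, 9.42-fold higher at P2 (95% interval of the ratio 8.17 to 10.9), and Fos was at 98.5 CPM in E12, 203 in E15, 1635 in P2 and 1932 in adult cells, 8.06-fold higher at P2 (95% interval of the ratio 7.2 to 9.06). Both belong to the AP-1 factor and were higher in the 2 postnatal libraries than in the 2 embryonic ones. These pairs of libraries also differed in digestion and dead-cell removal, so stage and preparation could not be told apart. Socs3, a feedback inhibitor of cytokine signals, was 8.35-fold higher (22.7 CPM at E15 and 189 at P2), Dusp1, a phosphatase of MAP kinases, 7.88-fold (103 CPM at E15 and 810.0 at P2) and Atf3, a stress factor, 7.13-fold (22.7 CPM at E15 and 162 at P2). Myc was at 25.4 CPM at E15 and 28.7 at P2 (ratio 1.13). The P2 and adult hearts had gone through the additional enzyme step, and its part in these genes was not tested. Cells in which the list held over 2% of UMIs numbered 0 at E15 and 335 at P2 (7.9%), and without them, a choice made on these genes' own counts, the ratio was 7.78 for Junb, 6.39 for Fos, 8.21 for Klf4, 5.62 for Klf2 and 6.33 for Hes1. The endocardial ratios from the same 2 suspensions were 3.65 for Junb, 2.86 for Fos, 4.41 for Klf4 and 3.34 for Klf2, lower than the coronary ones. Of 11 heat shock genes 1 was higher, Dnaja1 (2.35-fold, from 296 to 694 CPM), and 1 lower, Hspe1 (469 CPM at E15 and 209 at P2), with a median of 1.48. Each was 9.09% of the list, beside 13.5% higher and 3.32% lower over all genes. Of 8 genes of the glucocorticoid response 6 were higher (median 3.35). Sgk1, a kinase, was at 90.3 CPM in E12, 107 in E15, 551 in P2 and 899 in adult cells, 5.13-fold higher at P2 (95% interval of the ratio 4.39 to 6.03), Tsc22d3 (GILZ) was 3.59-fold higher (76.1 CPM at E15 and 273 at P2) and Cdkn1a, the cell cycle inhibitor p21, 4.57-fold (33.4 CPM at E15 and 152 at P2), while Fkbp5, a classical target of the receptor, was at 22.02 CPM at E15 and 18.5 at P2 (ratio 0.841).

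Interferon-response genes were higher at P2, 14 of 16 with none lower and a median ratio of 3.09 (12 after centring). In endocardial cells 7 of the 16 were at least 2-fold higher and none lower, with a median ratio of 1.94. A further 16 genes of the list, Cxcl10 among them, were below the filter. Of those counted, Isg15, Psmb8, Gbp7, Irgm1 and Iigp1 were under 20 CPM at E15 and passed the filter only through P2. Their direction was thus set by the filter, and the count of 14 is a description only. Isg15, a ubiquitin-like modifier, was at 0 CPM in E12, 8.67 in E15, 89.99 in P2 and 249.6 in adult cells, 10.4-fold higher at P2 (95% interval of the ratio 6.05 to 19.5). Psmb8, a subunit of the immunoproteasome, was at 0 CPM in E12, 3.34 in E15, 66.7 in P2 and 375 in adult cells, 20.01-fold higher at P2 (95% interval of the ratio 8.55 to 61.7). Neither had a UMI in the E12 coronary cells, where the floor of 3 UMIs was 12.3 CPM, and both were highest in the adult. Ifitm3, a membrane protein that blocks virus entry, was at 103 CPM in E12, 424 in E15, 1700.0 in P2 and 3524 in adult cells, 4.01-fold higher at P2 (95% interval of the ratio 3.7 to 4.34). Gbp7, a guanylate binding protein, was at 4 CPM at E15 and 42.8 at P2, 10.7-fold higher at P2 (95% interval of the ratio 4.89 to 29.2). Irgm1, an immunity-related GTPase, was at 12.7 CPM at E15 and 39.3 at P2, 3.1-fold higher. Iigp1, another GTPase, had 2 UMIs at E15, a ratio of 32.3 with an interval from 8.91 to 267. Bst2 and Ifitm2 stayed within 2-fold (1.77 and 1.66). Per cell at 500 UMIs the list held a median of 1 UMI in E15, 2 in P2 and 4 in adult cells, and at least 1 was found in 54.6% of cells at E15 and 86.5% at P2 (68.1% and 84.1% in endocardial cells).

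Antigen presentation genes of class I followed the same direction, with 5 of 6 higher, none lower and a median of 5.41 (5.67 in endocardial cells). H2-D1, a class I heavy chain, was at 73.9 CPM in E12, 154 in E15, 829 in P2 and 3399 in adult cells, 5.38-fold higher at P2 (95% interval of the ratio 4.73 to 6.15). H2-K1 was at 6.67 CPM at E15 and 91.2 at P2, 13.7-fold higher, and Tapbp, which loads peptides onto class I, at 18.01 CPM at E15 and 97.8 at P2, 5.43-fold. Tap2, a subunit of the peptide transporter, had 3 UMIs at E15, a ratio of 19.3 (95% interval 6.58 to 93.7). B2m, the light chain, was at 456 CPM in E12, 749.9 in E15, 1353 in P2 and 5579 in adult cells, a ratio of 1.8. The heavy chains are near-identical copies of each other, so the split of reads between H2-D1, H2-K1 and H2-Q4 is uncertain.

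The promoters of the interferon list were searched on either strand for GAAA, any 2 bases and GAAA again, the core of the interferon-stimulated response element. Sequences were those of RefSeq for GRCm38.p6, 300 bases each around the gene start, printed here to show where the letters lie in 4 of the genes that were higher at P2, with the matches in capitals. Matches lay in 5 of the 10 higher genes with a promoter in the table (14 were higher in all), in 1079 of all 27025 promoters (3.99%) and in 161 of the 4211 measured genes with a promoter (3.82%).
Gbp7, chr3:142530086-142530385 (+): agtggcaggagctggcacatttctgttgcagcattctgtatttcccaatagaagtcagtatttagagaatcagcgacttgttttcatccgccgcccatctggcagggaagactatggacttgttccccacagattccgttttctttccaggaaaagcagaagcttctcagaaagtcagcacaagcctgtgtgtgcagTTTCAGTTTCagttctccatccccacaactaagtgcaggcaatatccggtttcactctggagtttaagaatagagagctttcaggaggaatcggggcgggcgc
Isg15, chr4:156200769-156201068 (−): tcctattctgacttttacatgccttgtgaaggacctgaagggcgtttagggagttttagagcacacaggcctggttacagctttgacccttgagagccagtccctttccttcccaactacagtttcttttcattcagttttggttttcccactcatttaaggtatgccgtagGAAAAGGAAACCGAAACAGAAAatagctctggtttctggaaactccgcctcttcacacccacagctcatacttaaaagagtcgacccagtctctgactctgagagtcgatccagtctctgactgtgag
Ifitm3, chr7:141010695-141010994 (−): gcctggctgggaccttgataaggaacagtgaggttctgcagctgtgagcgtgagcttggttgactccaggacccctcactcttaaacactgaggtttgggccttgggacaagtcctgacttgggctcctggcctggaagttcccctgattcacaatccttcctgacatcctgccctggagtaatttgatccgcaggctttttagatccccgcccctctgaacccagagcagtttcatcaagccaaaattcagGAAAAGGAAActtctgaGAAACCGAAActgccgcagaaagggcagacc
Irgm1, chr11:48871371-48871670 (−): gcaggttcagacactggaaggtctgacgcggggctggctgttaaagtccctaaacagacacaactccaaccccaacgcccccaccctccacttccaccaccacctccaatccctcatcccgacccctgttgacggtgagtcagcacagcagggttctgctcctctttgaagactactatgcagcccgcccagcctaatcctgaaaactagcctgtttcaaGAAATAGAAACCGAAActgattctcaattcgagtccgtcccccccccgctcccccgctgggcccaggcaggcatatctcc
Isg15, 10.4-fold higher at P2, held 3 matches, Ifitm3 and Irgm1 2 each and Gbp7 1. Of the other matching genes Rsad2 was 2.95-fold higher and Bst2 and Ifitm2 were within 2-fold, while Psmb8, Irf1, Irf9, Ifi35 and Xaf1 were higher without a match in the window. Of the 4 higher antigen presentation genes with a promoter in the table, 0 matched. A match describes the letters only and is neither a binding site nor a cause.

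Several growth-related imprinted genes were lower, with 4 of 13 at least 2-fold lower, 1 higher and a median ratio of 0.714. Igf2, the fetal insulin-like growth factor, was at 743 CPM in E12, 923 in E15, 337 in P2 and 36.6 in adult cells, 2.74-fold lower at P2 (95% interval of the ratio 0.345 to 0.387). Plagl1, a transcription factor that acts on the imprinted network, was at 369 CPM in E12, 376 in E15, 106 in P2 and 11.3 in adult cells, 3.55-fold lower at P2 (95% interval of the ratio 0.257 to 0.31). Dlk1, a membrane-bound protein, was at 49.3 CPM in E12, 54.7 in E15, 5.42 in P2 and 0 in adult cells, 10.1-fold lower at P2 (95% interval of the ratio 0.0742 to 0.133). Its ratio was 0.0415 with P2 thinned and 0.206 under the study's cell limits. All 3 were lower at P2 than at E12 and E15 and lower again in the adult. Plagl1 and Dlk1 also mark endocardium, where they were at 1320.5 and 609.5 CPM and 431 and 29.7 CPM at E15 and P2. Meg3, a noncoding RNA, was 3.29-fold lower at P2 (95% interval of the ratio 0.252 to 0.368), a ratio of 0.592 under the study's cell limits and 0.134 with P2 thinned. H19, another noncoding RNA, was at 3022 CPM at E15 and 1702 at P2, a ratio of 0.563, and Sgce, sarcoglycan epsilon, was 2.66-fold higher (42.7 CPM at E15 and 114 at P2). Among 6 IGF binding protein and receptor genes Igfbp7, which is laid down around vessels, was at 41.1 CPM in E12, 147 in E15, 926 in P2 and 657 in adult cells, 6.31-fold higher at P2 (95% interval of the ratio 5.52 to 7.24), and Igfbp5, an endocardial marker as well, was 2.39-fold higher (178 CPM at E15 and 425 at P2, but a ratio of 0.842 under the stricter rule), while Igfbp4 was at 699 CPM at E15 and 378 at P2 (ratio 0.541).

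**Figure D4:**
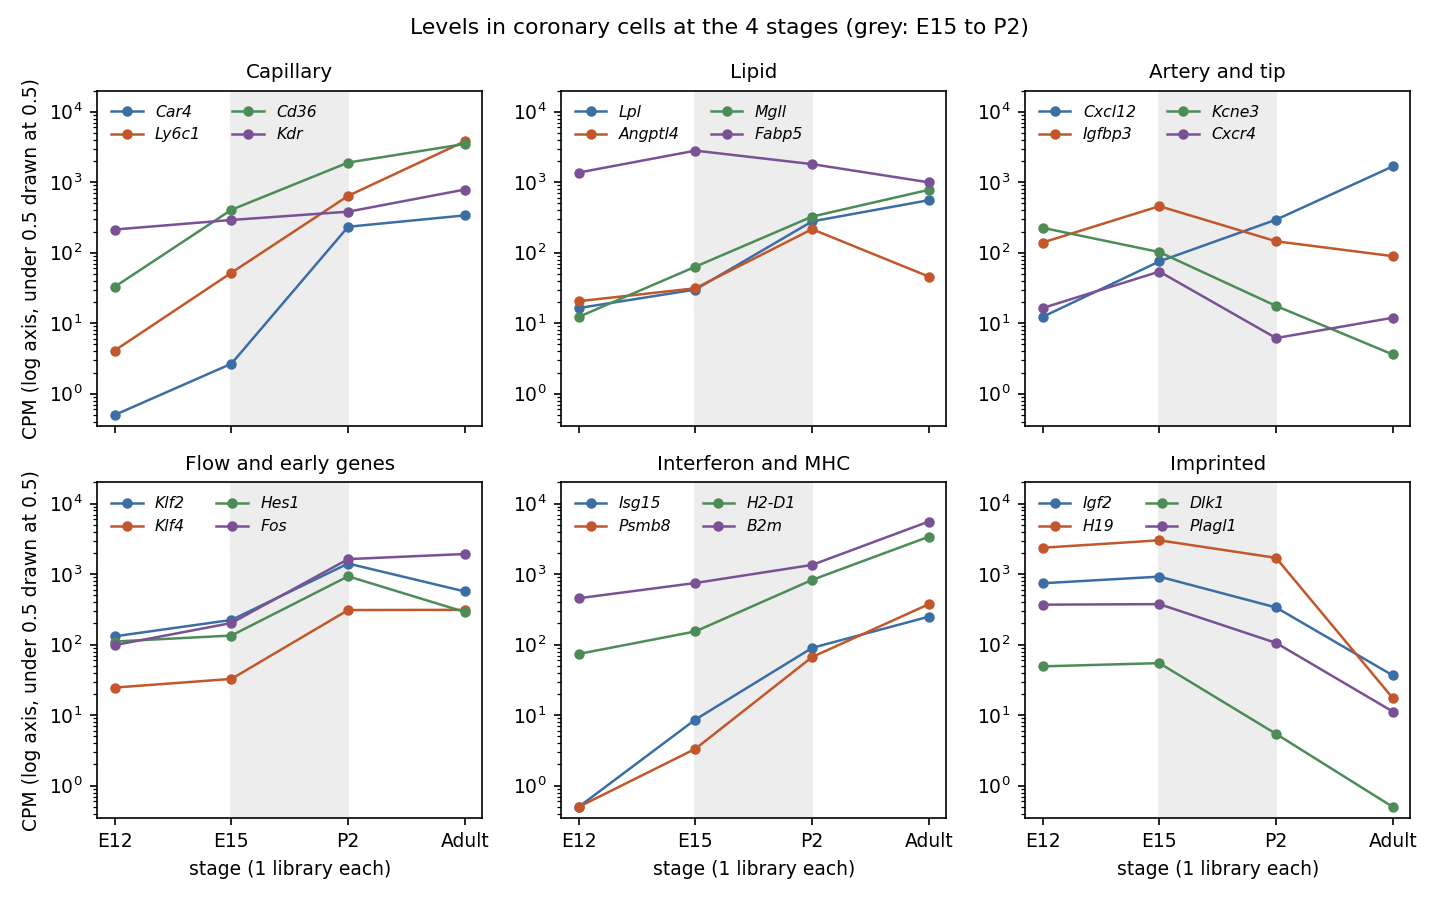
Levels in coronary cells of the 4 stages, E12 to adult, 1 library each, on a log axis of CPM in 6 groups of 4 genes, with the interval across birth shaded. The E12 levels rest on 112 cells, where 1 UMI is 4.11 CPM. Car4 steps up between E15 and P2 and nears its adult level, Angptl4 and Hes1 peak at P2, Cxcr4 and Igfbp3 peak at E15, and Igf2, Plagl1 and Dlk1 descend after E15.

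Genes of DNA replication were higher in 5 of 24 cases and lower in none, with a median ratio of 1.53. The 20.8% higher stood beside 13.5% of all genes. Prim1, a primase subunit, was 2.29-fold higher (15.3 CPM at E15 and 35.1 at P2), Rrm1 (2.25-fold, from 32.7 to 73.5 CPM) and Rrm2 (2.14-fold, from 68.1 to 146 CPM) make up ribonucleotide reductase, Mcm2 (2.04-fold, from 26.02 to 53.1 CPM) belongs to the replicative helicase and Fen1 (2.02-fold, from 24.02 to 48.4 CPM) trims flaps. With every P2 barcode thinned to 1013 UMIs none of the 24 passed 2-fold and the median was 1.15, and after centring none did. Of 21 mitosis genes none passed 2-fold in either direction, with a median of 1.09 (0.77 thinned, 0.917 centred). Mki67, the proliferation marker, was at 53.4 CPM in E12, 48.7 in E15, 43.2 in P2 and 8.08 in adult cells, a ratio of 0.887 (95% interval 0.699 to 1.14). In endocardial cells the medians were 0.907 for replication and 0.596 for mitosis, with 0.324 for Ube2c, a ubiquitin enzyme of mitotic exit, against 0.611 in coronary cells. Cells with a UMI of either list made up 57.8% of the coronary cells read at 500 UMIs at E15 and 50.4% at P2, and with a mitosis UMI 38.5% and 25.6%. Among the cells without such a UMI, 862 genes were higher and 215 lower, and the ratio of Car4 was 164.

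Of 25 endothelial transcription factors 4 were higher and 1 lower (median 1.43), 16% and 4%, near the 13.5% and 3.32% of all genes. Sox18, which acts in vessel and lymphatic formation, was at 111 CPM in E12, 201 in E15, 92.98 in P2 and 70.1 in adult cells, 2.16-fold lower at P2 (95% interval of the ratio 0.41 to 0.524), Gata2 was 2.51-fold higher (25.4 CPM at E15 and 63.5 at P2), and Erg, Fli1 and Ets1 were within 2-fold. The other higher ones were Meox2, Sox17 and Pparg, given above. Outside the lists the highest ratios included Fgl2 (26.8-fold, from 4 to 107 CPM), a prothrombinase and immune regulator, Srgn (8.82-fold, from 20.01 to 176 CPM), serglycin, and Slc26a10 (8.9-fold, from 18.7 to 166 CPM), an anion transporter family member. Fgl2 was at 18.2 CPM in the adult, while Srgn reached 756, and without lymphatic-marker cells the Fgl2 ratio was 10.7. Of 18 redox genes 4 were higher (22.2% beside 13.5% of all genes), with a median of 1.18 below the 1.26 of all genes (0.989 centred), among them Gstm1 (3.84-fold, from 22.02 to 84.6 CPM), a glutathione transferase, Txnip (3.67-fold, from 58.7 to 216 CPM), which binds thioredoxin, and Sepp1 (3.53-fold, from 213 to 752 CPM), selenoprotein P.

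Many of the genes lower at P2 were lower in both cell groups of the libraries. Of 181 lower genes 31 coded for ribosomal proteins and 20 were pseudogenes, out of 81 and 25 measured (51 ribosomal protein genes after centring), and 118 were other named genes. The 181 still included the 4 measured hemoglobins, Xist and some copies of ribosomal protein genes annotated as coding. The median ratio was 0.532 for ribosomal protein genes and 0.26 for pseudogenes, against 0.567 and 0.279 in endocardial cells, and pseudogene reads are hard to tell from those of their parent genes. Per cell at 500 UMIs the ribosomal protein genes held a median of 145 UMIs in E15, 79 in P2 and 54 in adult cells. Basp1, a membrane-attached signalling protein, had the lowest ratio of the genes with a mean of at least 50 CPM once hemoglobins and sex-linked genes were set aside, and was at 172 CPM in E12, 112 in E15, 6.99 in P2 and 0.433 in adult cells, 16.04-fold lower at P2 (95% interval of the ratio 0.0497 to 0.0781), with a ratio of 0.0766 in endocardial cells. Vps8, of endosomal tethering, was at 250.4 CPM in E12, 116 in E15, 8.64 in P2 and 8.95 in adult cells, 13.4-fold lower at P2 (95% interval of the ratio 0.0602 to 0.092), and 0.0695 in endocardial cells. Wdr89 was 6.02-fold lower (1536 CPM at E15 and 255 at P2) and the noncoding Snhg9 5.72-fold lower (142 CPM at E15 and 24.9 at P2). The mitochondrially encoded mt-Atp8 was at 346 CPM at E15 and 50.1 at P2, a ratio of 0.145 (0.178 in endocardial cells). Of 13 mitochondrially encoded genes 2 were at least 2-fold lower and 1 higher, with a median of 1.32. Further coding genes below, named after their values were seen, were Cdk2ap1 (5.2-fold lower), Ppp1r14b (4.1-fold) and Taf10 (4.1-fold), with endocardial ratios of 0.206, 0.304 and 0.279.

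Endocardial cells passed through the same 2 suspensions and were compared gene by gene. Of 4968 genes measured in both, 630 were higher at P2 in coronary and 520 in endocardial cells, with 336 in both (53.3% and 64.6%), and 156 and 146 were lower, with 108 in both (69.2% and 74.0%). The coronary ratio exceeded the endocardial one most for Car4, Ccnd1, Cxcl12, Fos, Ly6e, Rasgrp2, Abcg2, Junb, Lpl and 2810417H13Rik, ranked by the interval bound nearest to 1 among abundant genes. Ccnd1, cyclin D1, which drives cells into the cycle, was at 177 CPM at E15 and 376 at P2 in coronary cells and 81.4 and 36.8 CPM in endocardial cells, ratios of 2.12 and 0.452, so the coronary ratio was 4.7 (95% interval 3.7 to 5.96) times the endocardial one. For Cxcl12 the ratios were 3.9 and 0.738, and the coronary one was 5.32 (95% interval 3.43 to 8.27) times the endocardial one. For Ly6e, of the Ly6 family, they were 3.64 and 1.2, for Abcg2, an efflux pump, 1.98 and 0.692, and for Rasgrp2, an activator of Rap1, 1.12 and 0.353. The endocardial ratio exceeded the coronary one most for Eln, elastin, at 438 CPM at E15 and 519 at P2 in coronary and 232 and 1652 CPM in endocardial cells (ratios 1.19 and 7.13), followed by Lum, Col1a2, Vcan, Col3a1, Limch1, Igfbp3, Vcam1, Anxa1 and Nid2. Lum, Col1a2, Vcan and Col3a1 are matrix genes, Vcan one of the valve markers used here and the others fibroblast markers. The 8 fibroblast markers summed to 336 and 183 CPM in coronary cells and to 689 and 1548 in endocardial cells. The 7 valve markers summed to 163 and 194 CPM in coronary cells and to 377 and 933 in endocardial cells. The part of either cell type was not tested. Nid2, a basement membrane protein, had ratios of 1.91 and 18.5, and Vcam1, an adhesion molecule, 2.77 and 11.6. The coronary ratio of Vcam1 was 5.99 under the study's cell limits and 1.38 under the stricter rule.

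**Figure D5:**
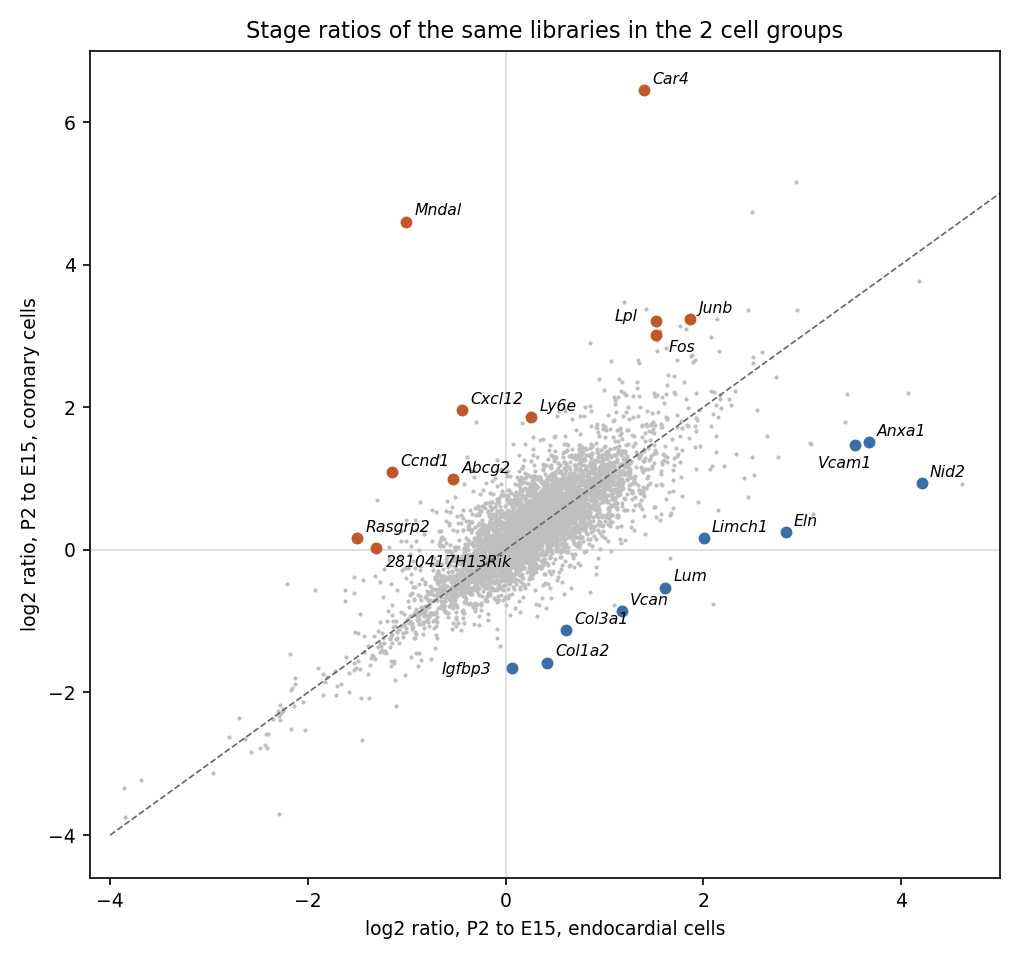
Each point is a gene measured in both cell groups, with the log2 ratio of CPM, P2 to E15, in endocardial cells on the horizontal and in coronary cells on the vertical axis, and the dashed line marks equal ratios. Orange and blue points are the 10 genes on each side whose ratios differed most, with Mndal, and Car4, Ccnd1 and Cxcl12 lie well above the line and Nid2 and Eln well below.

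The genes that chose the cells are described without comparison, since the rule sets their levels in part. Fabp4, a fatty acid binding protein, was at 5122 CPM at E15 and 15213 at P2, Cldn5, a tight junction claudin, at 479.7 CPM at E15 and 1454 at P2, Aplnr, the apelin receptor, at 139 CPM at E15 and 389 at P2 and Gpihbp1, which carries lipoprotein lipase across the capillary wall, at 520.4 CPM at E15 and 1384 at P2. Pecam1, Cdh5 and Egfl7 had ratios of 1.72, 1.55 and 1.44, and Npr3, Tmem108, Cpe and Gsta4 0.922, 1.35, 3.28 and 2.92.

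The libraries differed in make-up in ways that were measured beside these results. Cells with at least 2 lymphatic marker UMIs at 500 UMIs were 2.97% of the coronary cells read at E15 and 3.61% at P2, and without them 726 genes were higher and 183 lower. In cells with an Xist UMI and no Y-linked UMI, 738 genes were higher and 197 lower, with ratios of 224 for Car4, 7.86 for Lpl, 3.84 for Cxcl12, 0.36 for Igf2 and 5.52 for H2-D1. Under a stricter rule of at least 4 UMIs of the 4 coronary genes and no endocardial UMI, 773 genes were higher and 201 lower. After centring, Acadl, Ccnd1, Cd34, Dnaja1, Eci1, Etfa, Fen1, Fscn1, Hadhb, Mcm2, Ndrg1, Pfkp, Pparg, Prim1, Rrm1, Rrm2, Slc25a5, Tgfbi, Tmem100 and Trp53i11 of the genes named as higher were under 2-fold. With P2 thinned, Acadl, Etfa, Fen1, Mcm2, Prim1, Rrm1, Rrm2, Tgfbi, Tmem100 and Vcam1 were no longer past 2-fold, and under the study's cell limits Acadl, Col1a2, Col3a1, Fen1, Fscn1, Hadhb, Mcm2, Meg3, Rrm2 and Tmem100 were not. Under the stricter rule this held for Acadl, Fen1, Igfbp5, Mcm2, Ndrg1, Sox18, Tgfbi, Tmem100 and Vcam1, without cell-cycle cells for Acadl, Eci1, Etfa, Fscn1, Igfbp5, Mcm2, Prim1, Rrm2, Slc16a3, Tgfbi and Tmem100, and in cells with Xist alone for Etfa, Fen1, Hadhb, Igfbp5, Pparg, Tgfbi and Tmem100. The ratios of Mcm2, Prim1 and Rrm2 without cell-cycle cells were 1.7, 1.83 and 1.04, and UMIs of these genes helped to choose those cells. Ratios that moved by over 1.5 times in at least 1 subset of cells or other weighting but stayed past 2-fold included those of Aqp7 (141), Cxcr4 (0.072), Fos (12.5 to 12.6), Gata2 (3.94), Gbp7 (16.6 to 29.2), H2-Q4 (6.53), Iigp1 (114), Irf1 (5.89), Isg15 (22.7), Ltbp4 (5.7), Mndal (37.4 to 80.1), Pfkp (4.01), Plin2 (5.34), Prss23 (7), Psmb8 (35.7 to 73.7), Slc28a2 (7.91), Socs3 (12.6), Tap2 (44.1 to 46.6) and Thbd (6.69). The ratio of Cxcl12 was 2.46 without arterial-marker cells, which its own UMIs helped to choose.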

How the data were processed

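Single-cell RNA-seq (10x Genomics v2, 3′ ends) was analysed for sorted heart endothelial cells, 1 library each at E15 and P2, with E12 and adult libraries for context. The authors sequenced on a HiSeq 4000, aligned to mm10 and counted with Cell Ranger 2.2, and the deposited values are raw UMI counts per gene and barcode for 27998 genes, without normalization. All barcodes of the E15 and P2 files were used. The E12 file held all 737280 barcodes, and the 5732 of 452 UMIs or more were taken as cells, by the order-of-magnitude rule. Genes sharing a symbol (56 symbols) were summed. Coronary and endocardial cells were chosen by the rules given, UMIs were summed per stage and divided by the total of the summed cells (CPM). Ratios carry exact conditional binomial 95% intervals, shares exact binomial and levels exact Poisson intervals, and ratios of ratios log-normal intervals from the 4 counts. PCR and sampling beyond UMIs are not in them. With 1 library a stage no test was made. Genes with a mean of at least 20 CPM were counted past 2-fold. P2 barcodes were also thinned at random to 1013 UMIs, and shares of cells were read at 500 UMIs per cell. Doublets were not removed in the values given, and Scrublet scores over 0.15 (9.75% of E15 and 4.27% of P2 barcodes) were removed in an alternative together with the study's limits on UMIs, genes and mitochondrial share. Genes named were the 15 highest and 15 lowest ratios among genes with a mean of at least 50 CPM, by the bound nearest to 1 and without the hemoglobins and sex-linked genes, the 10 on each side that differed most from endocardium, the genes of the rule and members of 34 gene lists. Among the lowest, pseudogenes, unannotated genes, genes with Gm symbols and copies of ribosomal protein genes annotated as coding were left unnamed. The members, lists and comparisons were chosen with earlier results of these data known. Alternatives were other scalings, filters, fold limits, cell limits and subsets of cells. The removal of lymphatic-marker cells and thinning with centring were chosen after seeing the data. Promoters were those of RefSeq on GRCm38.p6, from 250 bases before to 50 after the start. Python 3.11.15, numpy 2.4.6, scipy 1.17.1, scanpy 1.11.5 and matplotlib 3.10.9 were used, and the scripts were tested on simulated data with known fold changes.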

Additional observations from a re-analysis of the deposited data

Results flagged for a closer look

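Among the genes named, Ccnd1 and Mndal were at least 2-fold higher at P2 in coronary cells and at least 2-fold lower in endocardial cells of the same 2 libraries. This was noted because the 2 cell groups moved in opposite directions, and the difference was not tested, as each stage had 1 library. Ccnd1 was 2.12-fold higher in coronary cells (95% interval 1.88 to 2.41), but 1.79-fold after centring, and had a ratio of 0.452 (95% interval 0.367 to 0.559) in endocardial cells. Its coronary level over the stages was 103 CPM in E12, 177 in E15, 376 in P2 and 269 in adult cells. Mndal, an interferon-inducible gene of the Ifi200 family, had 4 UMIs in E15 coronary cells and was 24.3-fold higher at P2 (95% interval 9.48 to 89.4), from 2.67 to 64.9 CPM, with a ratio of 0.498 (95% interval 0.348 to 0.721) in endocardial cells, from 27.3 to 13.6 CPM. With P2 thinned the endocardial level of Mndal was 14.4 CPM, within 2-fold of E15. Its adult coronary level was 294 CPM. Members of this family are close copies, so the assignment of their reads is uncertain.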

How the results depend on the processing

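No paired analysis was possible because each stage had 1 library, and for the same reason no replicate could be left out. Genes at least 2-fold higher and lower numbered 394 and 310 when centred on the median gene, 480 and 364 with mitochondrial, ribosomal protein and hemoglobin genes out of the totals, and 453 and 311 when thinned and centred. The share of higher genes among them was 80.2% on total UMIs, 56.0% centred, 56.9% with the other totals and 59.3% thinned and centred, so the balance of higher and lower rests on the scaling. With a mean of at least 5 CPM they numbered 1423 and 408, at least 100 CPM 189 and 86, without a filter 5555 and 1899, and at 1.5-fold 1814 and 429, where the alternative itself sets how many genes are tested or counted. In the other 9 alternatives run on each count, cell subsets, cell limits and depth among them, it stayed within 1.5 times. The coronary share of barcodes was 12.1% at E15 and 42.3% at P2 under a stricter rule (at least 4 coronary UMIs and no endocardial one) and 66.5% at P2 after thinning. Of the 126 genes named that were past 2-fold, 114 remained so after thinning, 105 after centring and 126 without cells high in immediate-early genes. Among these genes direction reversed for Col3a1 (ratio 1.24) under the study's cell limits, and for Igfbp5 (0.842) and Tgfbi (0.658) under the stricter rule, and the cause was not tested. Among named genes within 2-fold, ratios that crossed 1 and moved by over 1.5 times were those of Lum (1.85 under the study's limits), Plvap (0.908 under the stricter rule), and Eln (0.754) and 2810417H13Rik (0.485) without cell-cycle cells. An E15 gene with few UMIs has a wide interval, and a gene near 2 CPM at E15 rests on about 3 UMIs.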
